A study of Mus musculus with 4 samples.

Results

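The genes described here are 10 that are known for feedback on, or output of, signalling through the kinase ERK: the phosphatase genes Dusp4, Dusp5 and Dusp6, the Sprouty genes Spry1, Spry2 and Spry4, the related genes Spred1 and Spred2, and the transcription factor genes Etv4 and Etv5. They were chosen by name, with earlier results of these data known. All 10 were found by gene symbol among the 23475 genes of the deposited tables. Counts came from mRNA sequencing of cortical astrocytes that had been isolated on postnatal day 5. The 4 libraries fall into 2 groups of 2, WT and KO by their titles, and the series names the mice as PD1fl/fl and PD1cKO-Cx3. PD-1 is an inhibitory immune receptor encoded by Pdcd1, fl/fl denotes a floxed gene, and cKO a conditional deletion. The promoter that drives the deletion is given only as Cx3, and the sources used here state neither the deleted exons nor whether animals were pooled. The comparison of KO with WT addresses what differs in the astrocyte preparation when PD-1 is conditionally deleted.

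ERK is the last kinase of a relay that runs from growth factor receptors through RAS, RAF and MEK. Active ERK drives transcription of its own inhibitors, so their transcripts are widely read as a record of recent pathway activity. DUSP phosphatases remove the activating phosphates from ERK, Sprouty proteins damp signalling near the receptor, and SPRED proteins bring the RAS inactivator neurofibromin to the membrane. ETV4 and ETV5 carry the signal on to target genes, and Etv5 is known as a target of FGF and MEK signalling when cortical progenitors begin to form glia.

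The libraries held between 14224519 and 16961160 listed counts. In KO replicate 2, Ddx3y from the Y chromosome was counted 2472 times and Xist 0 times. The other 3 libraries had between 6732 and 8564 counts of Xist. The spread between the KO libraries thus includes a sex difference, and sex is not balanced between KO and WT. Pdcd1 had 0 counts in both WT libraries, 20 in KO replicate 2 and was not listed in KO replicate 1, so it cannot check the labels. All 10 astrocyte markers were counted in every library, with a summed level of 6930 to 7877 CPM (counts relative to library size, scaled for library composition) in KO and 7226 to 7895 CPM in WT, led by Slc1a3 and Aqp4. Markers of other cells were present too. The 12 microglial markers, led by Csf1r and Cx3cr1, summed to 3852 to 4566 CPM in KO and 855 to 1262 CPM in WT, and all 12 were higher in both KO libraries than in both WT libraries. The 10 endothelial markers, led by Cldn5 and Kdr, summed to 285 to 567 CPM in KO and 67.5 to 175 CPM in WT, and all 10 were likewise separated. Sums in KO and in WT were 455 to 890 CPM and 371 to 400 CPM for 10 pericyte and fibroblast markers (Rgs5, Pdgfrb), 700 to 881 CPM and 378 to 573 CPM for 8 oligodendrocyte markers (led by Mbp; Mobp at 0 in some libraries), and 2457 to 2467 CPM and 1839 to 2343 CPM for 8 precursor markers (Olig1, Pdgfra). They were 1572 to 1655 CPM and 1771 to 2072 CPM for 10 neuronal markers (Dcx, Tubb3), and 76.0 to 96.6 CPM and 26.6 to 27.8 CPM for 6 blood markers (Hba-a1, Ptprc; Hbb-bt at 0 in some libraries). The 5 ependymal and choroid plexus markers measured (Foxj1, Ccdc153) summed to 10.2 to 22.1 CPM in KO and 18.1 to 30.4 CPM in WT, with Aqp1, Folr1 and Kl at 0 in some libraries. Single markers did not all follow the sums. Higher in KO without overlap were 5 of 10 pericyte and fibroblast, 4 of 8 oligodendrocyte, 4 of 8 precursor and 5 of 6 blood markers. Of the 10 neuronal markers, 4 were lower and 1, Snap25, was higher without overlap. Of all tested genes, 21.2% were higher and 18.4% lower in this way. What part these cells have in the values below was not tested, and in bulk samples fewer cells of a type and less RNA per cell cannot be told apart.

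None of the 10 feedback genes passed the test between the groups (edgeR quasi-likelihood test, adjusted p from 0.396 for Dusp6 to 0.990 for Spred2). Across all 17696 genes tested, 0.017% passed as higher and 0.0% as lower, with DESeq2 calling 2.14% of them in either direction and, like limma-voom, 0 of these 10. Within this set, 4 genes (Dusp5, Dusp6, Spry1 and Spry4) were higher in both KO libraries than in both WT libraries, where 21.2% of all tested genes were, and 0 were lower in both, where 18.4% were (39.6% for either direction). Dusp5, Dusp6 and Spry1 had an unadjusted p under 0.05, which 8.29% of all tested genes had in either direction. The fitted log2 fold change was above 0 for 8 of the 10, and for 50.0% of all genes. Dusp5 had 0 counts in both WT libraries and could pass the low-count filter only as higher in KO. Of the 9 genes without it, 3 were higher without overlap, 2 had an unadjusted p under 0.05 and 7 had a fitted value above 0. The median log2 fold change of these 9 was 0.12 (0.22 with Dusp5), against -0.00027 for all genes tested. Without WT replicate 1 the median of the 9 was 0.48, and without KO replicate 2 it was 0.34. It was 0.14 without KO replicate 1 and 0.15 without WT replicate 2. With 2 libraries against 2, an exact two-sided permutation test of a single gene cannot go below p = 0.333.

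**Figure D1:**
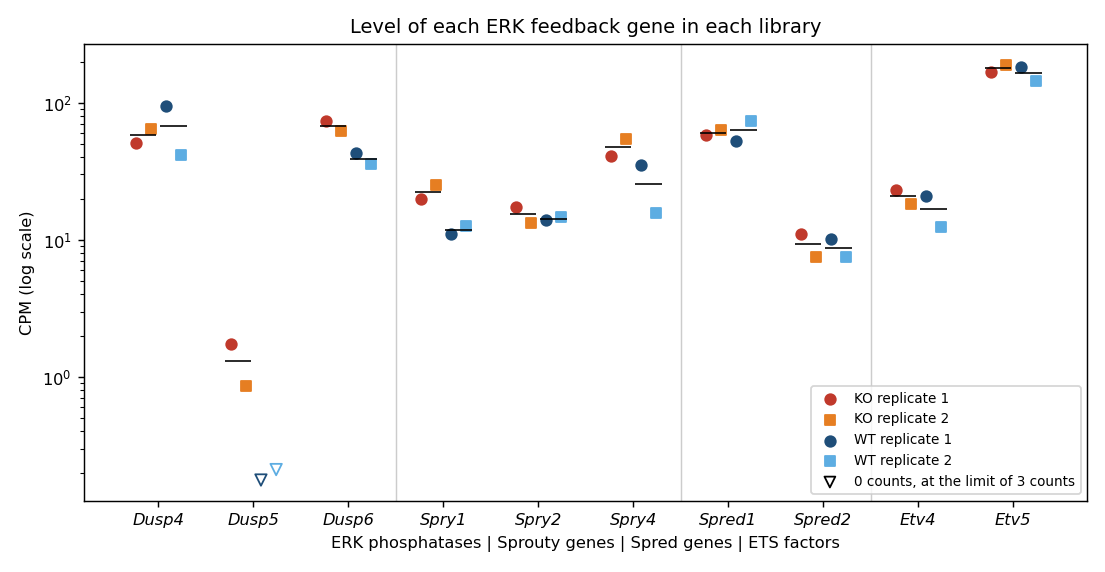
Level in CPM (log axis) of each of the 10 genes in the 4 libraries, with a line at each group's mean; open triangles mark the WT libraries in which Dusp5 had 0 counts, placed at what 3 counts would give. Dusp5, Dusp6, Spry1 and Spry4 have both KO points above both WT points, and the other 6 genes have overlapping groups.

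The phosphatases did not move as 1 block. Dusp6, which encodes a cytoplasmic phosphatase selective for ERK, was counted at 73.8 CPM and 62.6 CPM in KO replicates 1 and 2 and at 42.7 CPM and 35.6 CPM in WT replicates 1 and 2. Both KO libraries were above both WT libraries, at a mean of 68.2 ± 7.9 CPM against 39.1 ± 5.0 CPM (SD, n = 2 each), a 1.74-fold difference. The log2 fold change was 0.80 ± 0.21 (SE; edgeR, adjusted p = 0.396), and its rank by p was 408 of 17696. Dusp4, which encodes a nuclear phosphatase of ERK and related kinases, was counted at 51.1 CPM and 64.9 CPM in KO and at 94.6 CPM and 41.6 CPM in WT. The WT libraries enclosed both KO libraries, and the log2 fold change was -0.23 ± 0.40 (SE; edgeR, adjusted p = 0.956). Because both are read from the same library, the ratio of Dusp6 to Dusp4 counts needs no scaling. It was 1.45 and 0.965 in KO and 0.451 and 0.855 in WT, so the groups did not overlap, with KO replicate 2 close to WT replicate 2. That ratio and the one for the Sprouty genes below were chosen after the values were seen.

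Dusp5, which encodes a nuclear phosphatase selective for ERK, had 28 and 14 counts in KO replicates 1 and 2 and 0 counts in both WT libraries. Relative to the listed counts of the library this was 1.74 CPM (exact 95% binomial interval 1.16 to 2.51) and 0.853 (0.467 to 1.43). Taking 3 counts per library as the limit, 0 counts leave room for a level of up to 0.177 CPM in WT replicate 1 and up to 0.211 CPM in WT replicate 2. The KO mean of 1.30 CPM was thus at least 6.69-fold higher than the mean WT limit of 0.194, with the KO counts taken as measured. With the lower interval limits of the KO libraries (mean 0.811 CPM) in their place, the ratio to the WT limit was 4.18. Intervals and limits cover counting error only. Dusp5 passed the low-count filter through the KO libraries alone, so its direction was fixed, and its adjusted p was 0.455 (edgeR). An antisense gene, AC137853.2, shares 547 bases with it, and the sources used here do not say if counting was stranded. Of the other cells measured, microglial, endothelial, pericyte and fibroblast, oligodendrocyte, precursor and blood markers summed higher in both KO libraries than in both WT libraries. Outside the microglial and endothelial lists, not every single marker followed its sum, as counted above. Neuronal markers summed lower, although Snap25 was higher in both KO libraries. The part of these cells in the Dusp5 counts was not tested.

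The bases upstream of Dusp5 and Dusp6 are shown because these phosphatase genes had separated groups and because they differ in known ERK-linked motifs. RefSeq promoter windows (GRCm38.p6) existed for 7 of the 10 genes, and motifs were searched on both strands in the 250 bases before the start. Capitals mark the ETS core GGAA (or TTCC on the other strand), the letters bound by ETV4, ETV5 and their relatives, and the CArG box, the element bound by serum response factor. The sequence for Dusp5 is chr19:53528895-53529108, plus strand, and ends at the gene's start in the deposited tables. Its search window ran past these bases to the RefSeq start, so an ETS core beginning 9 bases before that start is not printed. That for Dusp6 is chr10:99262981-99263230, plus strand.
Dusp5: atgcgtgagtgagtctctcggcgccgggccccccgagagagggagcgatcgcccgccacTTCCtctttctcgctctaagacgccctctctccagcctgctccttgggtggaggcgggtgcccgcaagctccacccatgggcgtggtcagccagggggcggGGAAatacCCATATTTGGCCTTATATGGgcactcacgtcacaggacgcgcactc
Dusp6: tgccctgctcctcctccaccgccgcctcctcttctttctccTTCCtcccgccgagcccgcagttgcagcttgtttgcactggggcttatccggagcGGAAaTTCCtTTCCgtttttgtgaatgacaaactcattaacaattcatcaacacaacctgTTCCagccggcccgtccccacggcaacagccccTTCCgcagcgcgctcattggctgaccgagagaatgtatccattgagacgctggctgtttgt
Dusp5 held 2 CArG boxes, beginning 82 and 72 bases before the RefSeq start, and the CArG box occurred in 1.47% of the 32851 promoter windows of the same length. None of the other 6 genes with a window held one. The Dusp6 window held 6 ETS cores, and the window of Spred2, whose groups overlapped, held 7. Of all windows, 93.4% held at least 1, so a core alone sets no gene apart. CCGGAA (in 3952 of the 32851 windows), the AP-1 element TGANTCA (6.75%) and the cyclic AMP element TGACGTCA (1.55%) were not in the windows of these 7 genes. A match is a run of letters, and binding was not measured.

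Among the Sprouty genes, Spry1 and Spry4 had separated groups and Spry2 did not. Spry1 was counted at 19.8 CPM and 25.0 CPM in KO replicates 1 and 2 and at 11.1 CPM and 12.7 CPM in WT replicates 1 and 2. Every KO library was above every WT library, at 22.4 ± 3.7 CPM against 11.9 ± 1.1 CPM (SD, n = 2 each), a 1.89-fold difference. The log2 fold change was 0.92 ± 0.30 (SE; edgeR, adjusted p = 0.474). Spry4 was counted at 40.8 CPM and 54.0 CPM in KO and at 35.3 CPM and 15.8 CPM in WT. Its groups did not overlap, but WT replicate 1 lay near KO replicate 1, and WT replicate 2 lay far below all others. The log2 fold change of Spry4 was 0.89 ± 0.41 (SE; edgeR, adjusted p = 0.660). Leaving out WT replicate 2 gave 0.43, and leaving out WT replicate 1 gave 1.59. Spry2 was counted at 17.5 CPM and 13.3 CPM in KO and at 13.9 CPM and 14.7 CPM in WT, with a log2 fold change of 0.11 ± 0.31 (SE; edgeR, adjusted p = 0.977). The KO libraries enclosed the WT libraries for this gene.

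The ratio of Spry1 to Spry2 counts within a library was 1.13 and 1.88 in KO and 0.796 and 0.863 in WT. Spry1 thus had more counts than Spry2 in both KO libraries and fewer in both WT libraries, whatever the scaling between libraries. Counts are not corrected for gene length. In CPM per kilobase of exon, Spry1 lay below Spry2 in both WT libraries and in KO replicate 1 (6.80 against 8.38). It lay above Spry2 only in KO replicate 2 (8.61 against 6.38). The ratio of Spry1 to Spry4 counts, at 0.484 and 0.464 in KO and 0.314 and 0.802 in WT, overlapped. Upstream sequences of Spry1 and Spry2 are shown as a pair of related genes with separated and with overlapping groups. They are chr3:37639697-37639946 on the plus strand and chr14:105896820-105897069 on the minus strand (RefSeq, GRCm38.p6), with the ETS core in capitals as above.
Spry1: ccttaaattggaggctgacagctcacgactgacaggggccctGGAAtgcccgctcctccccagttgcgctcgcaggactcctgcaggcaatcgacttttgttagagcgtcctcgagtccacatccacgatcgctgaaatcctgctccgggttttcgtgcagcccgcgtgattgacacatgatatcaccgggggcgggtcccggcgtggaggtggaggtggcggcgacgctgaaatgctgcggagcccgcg
Spry2: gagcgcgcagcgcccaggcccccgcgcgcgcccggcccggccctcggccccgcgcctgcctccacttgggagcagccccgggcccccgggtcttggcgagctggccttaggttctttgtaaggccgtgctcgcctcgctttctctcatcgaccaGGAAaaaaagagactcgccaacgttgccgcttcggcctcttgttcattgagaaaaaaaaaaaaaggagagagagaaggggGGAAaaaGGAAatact
The Spry1 window held 1 ETS core and the Spry2 window held 3, and both windows had a GC content of 62.4%. Gm42922, on the other strand, shares 710 bases with Spry1. The short RNA genes Gm27369 and Gm27804 lie on the other strand within Spry4. These 3 genes are not analysed here.

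The Spred genes differed little between the groups. Spred1 was counted at 58.1 CPM and 62.8 CPM in KO and at 52.7 CPM and 73.3 CPM in WT, with both KO libraries between the WT libraries. Its log2 fold change was -0.06 ± 0.22 (SE; edgeR, adjusted p = 0.987). Spred2 was counted at 11.1 CPM and 7.54 CPM in KO and at 10.1 CPM and 7.44 CPM in WT. Replicate 1 was the higher of the pair in each group, and the log2 fold change was 0.09 ± 0.42 (SE; edgeR, adjusted p = 0.990). The ratio of Spred2 to Spred1 counts was 0.192 and 0.120 in KO and 0.191 and 0.102 in WT, so the groups overlapped in the balance between these genes.

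The transcription factor genes also overlapped. Etv5 was counted at 166 CPM and 189 CPM in KO and at 183 CPM and 145 CPM in WT, a log2 fold change of 0.12 ± 0.17 (SE; edgeR, adjusted p = 0.944). Its SE was the smallest of the 10 genes. Etv4 was counted at 23.2 CPM and 18.4 CPM in KO and at 21.0 CPM and 12.4 CPM in WT, a log2 fold change of 0.32 ± 0.36 (SE; edgeR, adjusted p = 0.918). WT replicate 2 was the lowest library for both genes, and without it the log2 fold changes were -0.04 for Etv5 and -0.01 for Etv4. Etv4 counts were 0.139 and 0.0971 of Etv5 counts in KO and 0.114 and 0.0854 in WT.

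Set against the replicates, the difference between group means was larger than the difference between replicates in both groups for Dusp6 and Spry1, 2 of the 9 genes with counts in every library. Of all tested genes with counts in every library, 26.5% met that description. Dusp6 was 1.47-fold to 2.07-fold higher across the 4 pairs of a KO with a WT library, while its replicates differed 1.18-fold in KO and 1.20-fold in WT. Spry1 was 1.56-fold to 2.26-fold higher across the same pairs. Dusp4 and Spry4 differed most between the WT libraries, WT replicate 1 being 2.27-fold and 2.24-fold above WT replicate 2. Of tested genes with a mean of at least 10 CPM and no 0, 6.9% differed over 2-fold between the WT libraries and 2.33% between the KO libraries. None of the 9 genes differed over 2-fold between the KO libraries. Etv4 was 1.69-fold and Etv5 1.26-fold higher in WT replicate 1 than in WT replicate 2, while Spred1 went the other way, with a log2 ratio of -0.47.

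**Figure D2:**
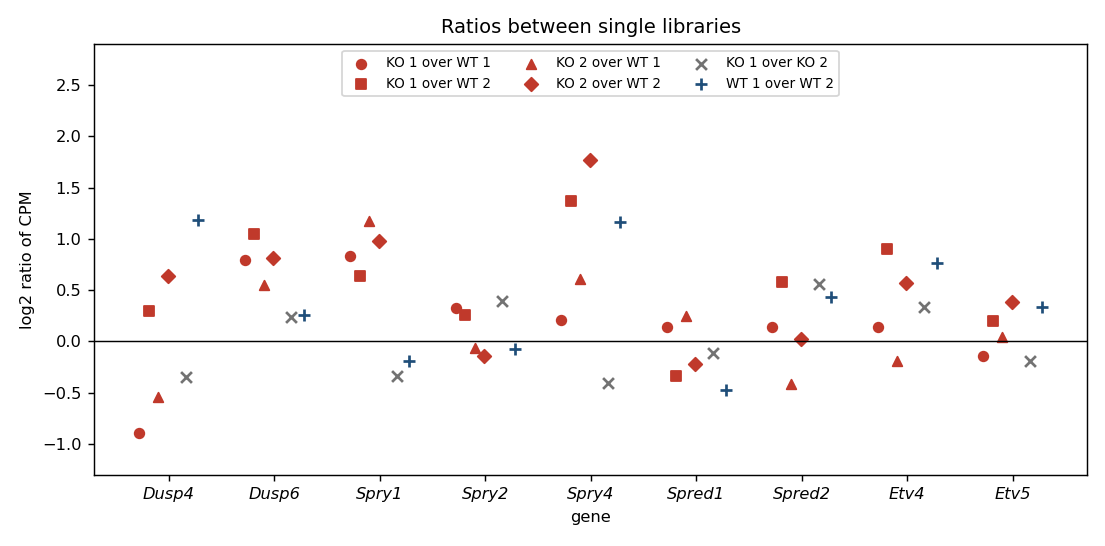
Log2 ratio of CPM for each KO library over each WT library (red) and between the replicates of each group (grey cross for KO, blue plus for WT), for the 9 genes with counts in every library. The red points of Dusp6, Spry1 and Spry4 all lie above 0, and for Spry4 and Dusp4 the ratio between the WT libraries, at 1.16 and 1.18, is as large as many ratios between groups.

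**Figure D3:**
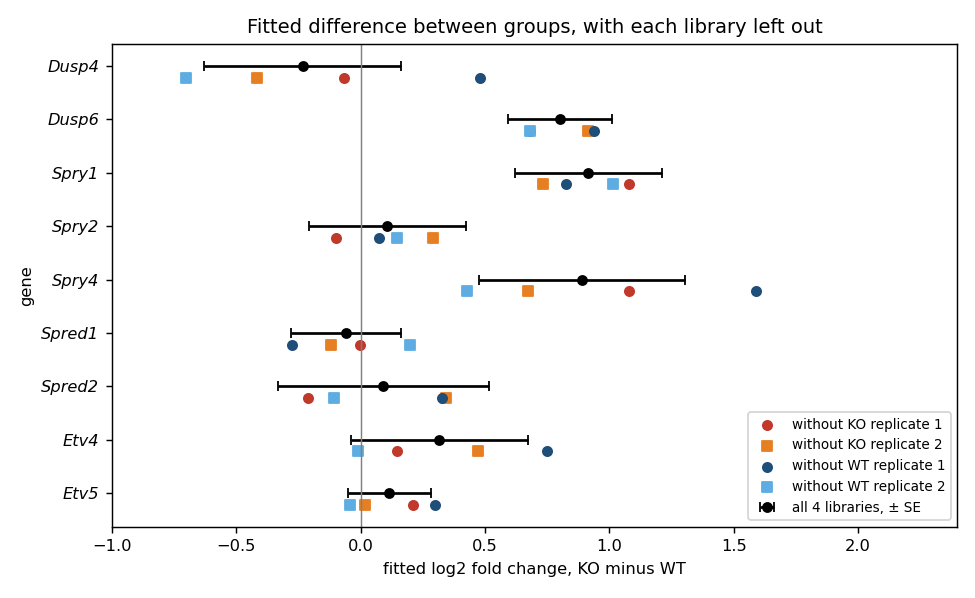
Fitted log2 fold change with its SE from all 4 libraries (black) and with each library left out (coloured), for the same 9 genes. Dusp6 stays between 0.68 and 0.94 and Spry1 between 0.73 and 1.08, while Dusp4 runs from -0.70 to 0.48.

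Leaving out each library in turn, the fitted difference stayed above 0 for Dusp6, Spry1 and Spry4 and had both signs for Dusp4, Spry2, Spred1, Spred2, Etv4 and Etv5, as the plot of fits with each library left out shows. Without KO replicate 2, the library with Y-linked transcripts, the log2 fold changes were 0.91 for Dusp6, 0.73 for Spry1 and 0.67 for Spry4, and none of the 10 genes passed. Without KO replicate 1 they were 0.68, 1.08 and 1.08. Marker sums of microglia, endothelial cells and several other cell types were separated between the groups in the same libraries, as given above. The part of these cells in these values was not tested.

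Levels of different genes were compared per kilobase of exon (GENCODE M21), in CPM per kilobase, as the mean of all 4 libraries. Etv5 was the most abundant at 41.7 and ranged from 35.3 to 46.2, above the range of every other gene. Dusp4 at 23.0 and Dusp6 at 17.1 followed, with overlapping ranges, and their order differed between libraries: Dusp6 exceeded Dusp4 in KO replicate 1, at 23.6 against 18.6, and lay below it in the other 3 libraries. Spred1 at 9.10, Spry4 at 7.67, Spry2 at 7.12, Etv4 at 6.04 and Spry1 at 5.89 formed a middle group in which each range overlapped the next. Spred2 at 1.96 and Dusp5 at 0.264 were lowest, and their ranges did not overlap each other or the genes above. Spry4 ranged from 3.32 in WT replicate 2 to 11.3 in KO replicate 2.

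The authors compared single libraries pair by pair, and the 4 comparisons share libraries. In the authors' deposited tables, Dusp5 was labelled significant and up in 4 of 4 comparisons. Genes labelled so in all 4 of the authors' deposited tables made up 5.15% of those listed in all 4. The Dusp5 labels set 28 and 14 KO counts against WT counts of 0, taken as 0.5 count, so their direction was fixed. The authors' deposited tables labelled Spry4 in 2 comparisons, both against WT replicate 2, with log2 fold changes of 1.35 and 1.75, and against WT replicate 1 gave 0.21 and 0.61 without the label. Dusp6 was labelled once in the authors' deposited tables, for KO replicate 1 against WT replicate 2 (log2 fold change 1.03), and Spry1 once, for KO replicate 2 against WT replicate 1 (1.17). For KO replicate 1, the authors' deposited tables labelled 16.6% of genes as up and 13.1% as down against WT replicate 1, and 18.1% and 13.4% against WT replicate 2. For KO replicate 2, the authors' deposited tables labelled 17.9% as up and 9.71% as down against WT replicate 1, and 19.1% and 10.4% against WT replicate 2. The other 6 genes had no label in the authors' deposited tables. The authors' deposited log2 fold changes of Dusp4 were -0.89 and -0.55 against WT replicate 1 and 0.27 and 0.61 against WT replicate 2, so the sign turned with the WT library used.

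Of 11 relatives of these genes tested, 0 passed in either direction. Without overlap, 3 were higher and 2 lower in KO, where 21.2% and 18.4% of all tested genes were. The median log2 fold change of the relatives was 0.01. At an unadjusted p under 0.05 there were 2, Etv1 and Dusp7, and DESeq2 and limma-voom called 0. Etv1, the third member of the ETS subfamily of Etv4 and Etv5, was counted at 20.7 CPM and 29.9 CPM in KO and at 42.6 CPM and 54.8 CPM in WT, below WT in both KO libraries (log2 fold change -0.94 ± 0.28 SE; edgeR, adjusted p = 0.455). Dusp7, which encodes a cytoplasmic ERK phosphatase like DUSP6, was counted at 17.6 CPM and 27.5 CPM in KO and at 12.1 CPM and 10.8 CPM in WT, with a log2 fold change of 0.97 ± 0.34 (SE; edgeR, adjusted p = 0.505). Spred3 had a log2 fold change of 0.67, and Dusp16, a phosphatase of the stress kinases, of 0.48, both with separated groups. Il17rd, which encodes the FGF signalling inhibitor SEF, was lower in both KO libraries with -0.58. The remaining relatives overlapped: Dusp1, Dusp8 and Dusp10 had log2 fold changes of 0.03, 0.01 and -0.03, Spry3 -0.13, Dusp2 -0.37 and Dusp9 0.02.

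In the core cascade from adaptor to kinase, 0 of 26 genes passed in either direction. Without overlap, 5 were higher and 3 lower in KO, where 21.2% and 18.4% of all tested genes were. The median log2 fold change of the list was -0.03. Of the 26, 2 had an unadjusted p under 0.05, among them Rps6ka1, and DESeq2 and limma-voom called 0. Mapk3, which encodes the kinase ERK1, had means of 40.6 ± 2.6 CPM in KO against 54.4 ± 4.2 CPM in WT (SD, n = 2 each), with a log2 fold change of -0.42 ± 0.20 (SE; edgeR, adjusted p = 0.664). Rps6ka1, which encodes the ERK-activated kinase RSK1, had the smallest p of the list, at 26.8 ± 3.4 CPM in KO against 10.7 ± 1.4 CPM in WT (SD, n = 2 each), with a log2 fold change of 1.33 ± 0.29 (SE; edgeR, adjusted p = 0.314). The most abundant genes of the list by CPM, Pea15a (an ERK-binding protein rich in astrocytes), Nras and Map2k2 (MEK2), had log2 fold changes of -0.12, -0.10 and -0.16.

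Other genes known to respond to ERK gave no call either. Of 13, 11 were tested and 0 passed in either direction. Without overlap, 4 were higher and 2 lower in KO, where 21.2% and 18.4% of all tested genes were. The median of the list was -0.02. An unadjusted p under 0.05 was reached by 1, Plaur, and DESeq2 and limma-voom called 0. Plaur, the urokinase receptor gene, had means of 12.7 ± 0.22 CPM in KO against 4.78 ± 0.31 CPM in WT (SD, n = 2 each), with a log2 fold change of 1.41 ± 0.38 (SE; edgeR, adjusted p = 0.442). Errfi1, which encodes a feedback inhibitor of the EGF receptor, had 0.44 with separated groups, and the most abundant genes Epha4, Ccnd1 (cyclin D1) and Myc had -0.11, 0.33 and -0.06. Of 11 immediate early genes, which are induced within minutes by ERK and other signals, 0 passed in either direction. Without overlap, 4 were higher and 2 lower, beside the same shares of all tested genes, and the median was 0.24. Junb and Atf3 had an unadjusted p under 0.05 and were the 2 that DESeq2 called, while limma-voom called 0. Junb had means of 57.8 ± 5.3 CPM in KO against 29.9 ± 4.4 CPM in WT (SD, n = 2 each), with a log2 fold change of 0.95 ± 0.22 (SE; edgeR, adjusted p = 0.350). Atf3, a stress-induced factor, had 7.46 ± 4.9 CPM and 0.728 ± 0.14 CPM (SD, n = 2 each; edgeR, adjusted p = 0.350). The most abundant were Fos, Jun and Btg2, at -0.56, -0.09 and -0.25 on the log2 scale.

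**Figure D4:**
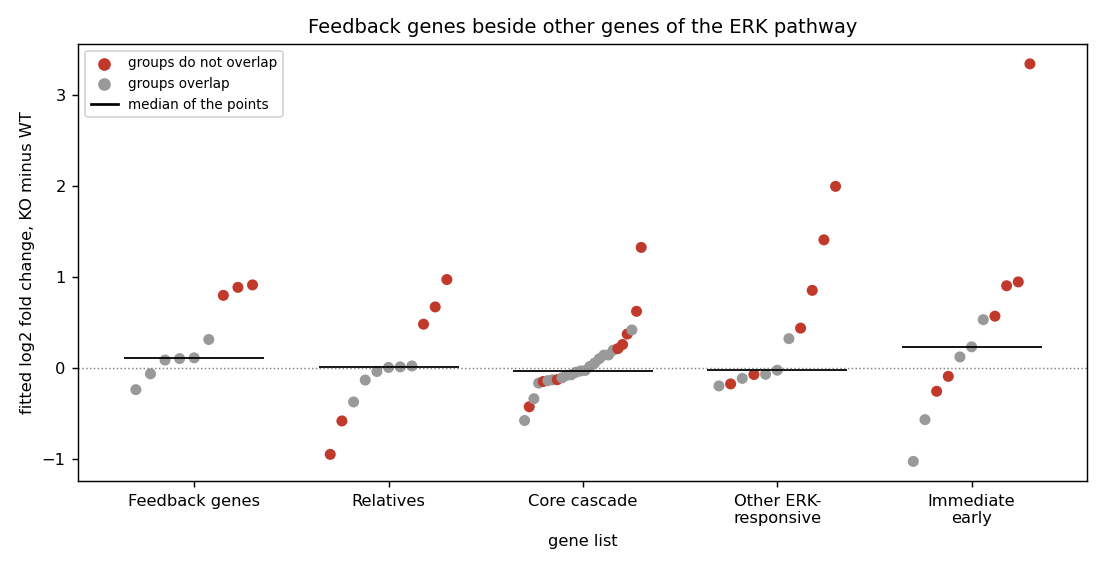
Fitted log2 fold change of each tested gene in the feedback set (without Dusp5), its relatives, the core cascade, other ERK-responsive genes and immediate early genes, with the median of the plotted points as a line (0.12, 0.01, -0.03, -0.02 and 0.24). Red points are genes whose KO and WT libraries do not overlap. The feedback set has 3, all above 0, and the other lists have red points on both sides of 0. Of all tested genes, 21.2% were higher and 18.4% lower in KO without overlap. The genes and lists were chosen with earlier results of these data known.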

How the data were processed

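Counts of 4 libraries were analysed, grouped by sample title. The authors deposited 4 tables, each with whole-number counts per gene for a KO and a WT library, a normalized value equal to CPM (counts relative to the library total) with 0 replaced by 0.5 count, the ratio (fold change) of those values, its log2, and p-values from a test that the file headers do not name. The authors labelled a gene significant where p was under 0.05 and the log2 fold change was 1 or more in size. HTSeq 0.6.0, TopHat2 2.0.12 and Bowtie2 2.2.3 are named, with the build mm9, per the submitters' processing notes. Of the gene positions, 90.6% were identical to GENCODE M21 on GRCm38, so coordinates are on GRCm38.

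Tables were joined by gene. A count missing from every table was set to 0 and can be at most 4. Groups were compared with edgeR 4.0.16 (TMM, filterByExpr with a minimum count of 10, quasi-likelihood test, R 4.3.3), with Benjamini-Hochberg adjustment over all 17696 genes tested and a threshold of 0.05, on 2 residual degrees of freedom. The script was tested on simulated data with 200 changed genes. SEs were derived from the F statistic. CPM in the text uses TMM-scaled library sizes. Separate animals are not stated in the labels, and p-values cover only the spread among these libraries, which may be technical. Replicates differed beyond sampling noise (chi-square per gene 20.3 in KO and 30.6 in WT). The genes and lists were chosen with earlier results of these data known. The rule named all 10 genes, every relative reaching 1 CPM, in each other pathway list any gene past the threshold, or failing that the 3 with the highest CPM and the 3 with the smallest p, and the 2 most abundant markers of each cell type. One marker is not analysed here, and some named genes are not reported. Alternatives were DESeq2 1.42.0, limma-voom (limma 3.58.1), 3 other scalings, 2 other filters, a threshold of 0.1, a replicate block, unlisted counts at their limit and leaving out each library.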

Additional observations from a re-analysis of the deposited data

How the results depend on the processing

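None of the 10 feedback genes passed an adjusted p of 0.05 in any of the 118 alternative fits of a single gene, and the smallest adjusted p was 0.0981, for Dusp6 with DESeq2. With all 4 libraries kept, none changed sign. With a library left out, the log2 fold change ran from -0.70 to 0.48 for Dusp4, from -0.10 to 0.29 for Spry2, from -0.28 to 0.20 for Spred1, from -0.21 to 0.34 for Spred2, from -0.011 to 0.75 for Etv4 and from -0.042 to 0.30 for Etv5. The median of the 9 genes without Dusp5 ran from 0.0995 with upper quartile scaling to 0.48 without WT replicate 1, and was 0.14 without KO replicate 1. That of all 10, where all were tested, ran from 0.17 without WT replicate 2 to 0.61 without WT replicate 1. Dusp5 had no value without KO replicate 1 or at a mean CPM of at least 5, since it was then not tested. No tested gene had an unlisted count, so setting those to their limit left the fit as it was. With a library left out the lone sample is assumed to vary like the other group.

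The number of genes called over the whole table depended strongly on the setting, from 3 higher and 0 lower in the comparison as reported. DESeq2 called 315 higher and 63 lower, limma-voom 25 and 3, the fit without a low-count filter 52 and 4, the fit at a mean CPM of at least 5 63 and 5, and a threshold of 0.1 14 and 1. With a library left out, between 0 and 41 genes were higher and between 0 and 1 lower. The cause was not tested. The replicate number as a block gave 4 higher and 0 lower genes and a median of 0.24 for the feedback genes. Same-numbered libraries share only a number: their deviations from the group means correlated at 0.0321, so the block is no pairing. At these depths, Dusp5 rests on 42 counts in all.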

Other observations

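Egr1 and Ier2, immediate early genes outside the naming rule and chosen after their values were seen, were lowest in WT replicate 1, at 194 CPM and 116 CPM, and highest in WT replicate 2, at 405 CPM and 238 CPM. Fos was also highest in WT replicate 2, at 553 CPM. The immediate early genes did not all go this way between the WT libraries. Arc, Nr4a1, Atf3 and, by little, Jun had less in WT replicate 2 than in WT replicate 1. Fosb, Junb, Egr2 and Btg2 had more. Of the 9 feedback genes with counts in every library, 6 (Dusp4, Dusp6, Spry4, Spred2, Etv4 and Etv5) had more in WT replicate 1 than in WT replicate 2, and 3 (Spry1, Spry2 and Spred1) had less. Dusp1, a phosphatase gene that responds quickly to stress, was counted at 69.9 CPM and 88.5 CPM in WT replicates 1 and 2 and at 88.9 CPM and 72.4 CPM in KO replicates 1 and 2.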
